A study of Mus musculus with 9 samples.

Results

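The proteasome genes of the mouse were compared between the striatum of R6/2 mice and that of wild-type mice. The genes were those whose symbol starts with Psm, then a letter from a to g and a digit, taken from probe sets annotated to exactly 1 gene, with the brightest probe set used for each gene. This gave 49 of the 18193 genes measured, from 103 probe sets. Of the 49 genes, 47 encode proteasome subunits, activators, an inhibitor or assembly factors. The remaining 2, Psmc3ip and Psme3ip1, were matched by their symbols only. The probe set shared by Psme2 and Psme2b names several genes and was left out, so the partner of Psme1 in its activator complex has no value here.

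RNA from the striatum, the forebrain region most affected in Huntington disease, was hybridised to Affymetrix arrays, 1 array per mouse. The R6/2 group held 5 transgenic mice, whose transgene is exon 1 of human huntingtin, with its CAG repeat expanded, driven by the human promoter and added to the mouse's own huntingtin genes. The wild-type group held 4 mice without the transgene. All were female, on a mixed C57Bl/6 / CBA background and 12 weeks old. In days, R62_86 and all wild-type mice were 85 days old and the other 4 R6/2 mice were 83 days old, so genotype and age cannot be told apart for those 4. No source used here gives the length of the repeat or the litters of the mice, so p-values measure the spread between these mice. The transgene itself was not analysed here. Each mouse is called by its group and number, such as R62_86 for an R6/2 mouse and WT_46 for a wild-type mouse.

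Values are log2 expression values made by RMA, a method that corrects background, puts all arrays on a common distribution and condenses each probe set to a single value. They are relative to the other genes of an array, and levels of different genes are not comparable. Differences are R6/2 minus wild-type on the log2 scale, tested with limma over all 18193 genes, and a gene is said to have risen or fallen where its Benjamini-Hochberg adjusted p was under 0.05. In bulk tissue, fewer cells of a type and less RNA per cell cannot be told apart.

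The proteasome is the cell's main protease for proteins tagged with ubiquitin. Its core particle is a barrel of alpha rings, which gate the entrance, around beta rings, which hold the catalytic sites. A regulatory particle caps the barrel: ATPase subunits unfold the substrate and thread it into the core, and non-ATPase subunits bind and remove ubiquitin. Interferon induces replacement catalytic subunits, which form the immunoproteasome, and an activator of which Psme1 is a subunit. Aggregates of mutant huntingtin in neurons carry ubiquitin, so proteasome genes have long been studied in Huntington disease models.

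Facts of the tissue samples bear on every result. Of 13 measured markers of striatal projection neurons, 12 fell, beside 7.57% of all genes. The mean of the 13 lay at 9.68 to 10.5 on the R6/2 arrays and 11.4 to 11.7 on the wild-type arrays. This mean was thus bright in every mouse, while single markers reached lower, such as Pdyn at 5.95 in R62_105. Markers of cortical projection neurons, a neighbouring tissue, rose for 5 of 10 genes and fell for none, beside 9.28% and 7.57% of all genes. Their array means were 6.80 to 7.74 in R6/2 and 6.03 to 6.98 in wild-type. Choroid plexus markers averaged 5.38 to 7.68 in R6/2 and 5.92 to 9.16 in wild-type, and were highest in R62_107, WT_47 and WT_66. The difference between 3' and 5' control probe sets, a sign of RNA quality, was 0.82 in R62_95 and 0.37 in WT_49, against 0.14 to 0.24 in the other mice.

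Of the 49 proteasome genes, 11 rose in R6/2 striatum (22.4%), beside 9.28% of all genes. None fell by limma, beside 7.57% of all genes. At an unadjusted p under 0.05 there were 16 higher and 1 lower, beside 2973 and 2695 of all 18193 genes. The genes that rose were Psme1, an activator subunit, Psmb10, an immunoproteasome subunit, the alpha subunits Psma1 and Psma3, the ATPases Psmc3, Psmc4 and Psmc6, and the non-ATPase subunits Psmd1, Psmd2, Psmd4 and Psmd11. The median difference over the 49 genes was 0.12, against -0.02 over all genes. Above 0 were 39 of the 49 differences, beside 8395 of 18193 over all genes. All 5 R6/2 values lay above all 4 wild-type values for 12 of the 49 genes, beside 9.18% of all genes, and for none of the 49 did they all lie below, beside 8.09% of all genes. Those 12 were the genes that rose other than Psmc4, together with Psmc2 and Psmd3, which did not pass the adjusted test.

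The probe sets of 45 of the 49 genes lay in the brighter 50% of the array, a measure of probe signal and not of transcript number. In that part of the array 15.7% of genes rose, and the median difference was 0.05. The corresponding count for proteasome genes was 11 of 45 (24.4%), with a median of 0.14.

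**Figure D1:**
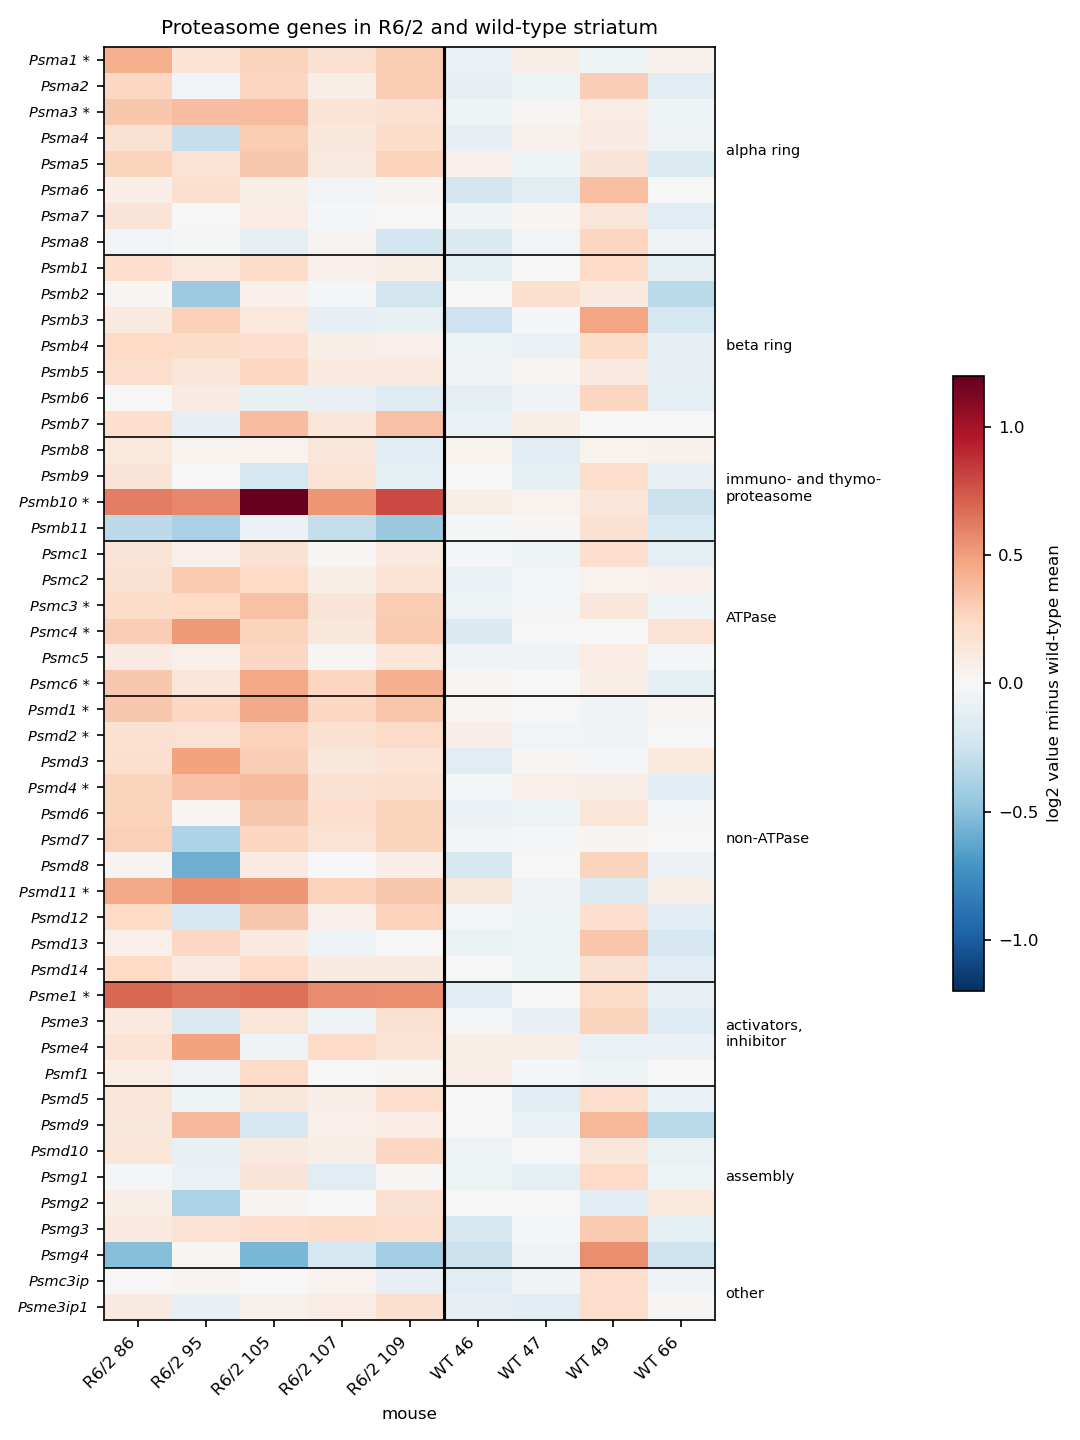
Log2 value of each proteasome gene (rows, by role) in each mouse (columns, R6/2 left of wild-type), shown as the difference from the wild-type mean of that gene; red is higher and blue lower, and an asterisk marks a gene that passed the adjusted test. Psme1 and Psmb10 show the deepest red over all 5 R6/2 columns, and WT_49 stands above the other wild-type mice in most rows.

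The number of genes that passed differed between ways of handling the tissue samples. With the mean of the cortical markers as a covariate, 1 proteasome gene rose, Psme1, beside 0.533% of all genes. Without the 3 arrays highest in choroid plexus markers it was again Psme1 alone, beside 2.16% of all genes. Without R62_95 and WT_49, the arrays with the largest 3' to 5' difference, 21 proteasome genes rose, beside 10.3% of all genes. Centring on housekeeping genes left Psmb10 and Psme1 (2 genes, beside 2.79% of all genes). It had 1 proteasome gene fall, Psmb11, beside 1633 of all 18193 genes. This centring shifted the median of all genes to -0.12, against -0.02 without it. Its reference was 5 measured genes with a median difference of 0.10. Of these 1 rose by limma, Hprt (0.30, adjusted p = 0.0112), and 0 fell. With age as a covariate, the difference of a gene was that of R62_86 alone from the wild-type mean. The R6/2 mice of another age shaped only the age term and the error. None rose by limma in that fit, beside 0.022% of all genes. The median over the 49 genes was 0.11 with the cortical covariate, 0.10 without the choroid-rich arrays and 0.16 with the age covariate, against 0.12 in the fit reported. Errors were wider in these fits: Psmd11 differed by 0.33 ± 0.13 with the cortical covariate, 0.48 ± 0.12 without the choroid-rich arrays and 0.46 ± 0.15 with the age covariate, against 0.43 ± 0.09 (SE) in the fit reported. Differences also became smaller with the cortical covariate. Psmc6 was 0.17 ± 0.11 (SE) there, against 0.32 ± 0.08, and Psmb10 also moved, as given with its values. Psmd1 was 0.24 against 0.32, Psmd2 0.14 against 0.21, Psmd4 0.19 against 0.28 and Psmc3 0.20 against 0.25. Psma1 was 0.23 against 0.27 and Psma3 0.24 against 0.28. Of the genes that rose, only Psmc4 (0.41 against 0.30) and Psme1 (0.64 against 0.62) were not smaller. The part of the neighbouring tissues, of RNA quality and of age in the results was not tested.

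The 2 genes with the largest differences belong to the interferon-inducible side of the family. Their upstream sequences are printed with those of Psmb8 and Psmb9, the other inducible catalytic subunits, whose transcripts did not pass the test, so that the 4 can be read side by side. Each is the 250 bases before the annotated start, 5′ to 3′ on the gene's own strand, from RefSeq on GRCm38.p6, in which 41 of the 49 genes had an entry. Capitals mark letters matching 1 of 4 motifs searched on both strands: the interferon-stimulated response element (GAAA, any 2 bases, GAAA), the gamma-activated site (TTC, any 3 bases, GAA), the antioxidant response element core (TGAC, any 3 bases, GC) and the CCAAT box (CCAAT). None of the marked letters belongs to more than 1 motif.
Psme1, chr14:55578244-55578493, plus strand: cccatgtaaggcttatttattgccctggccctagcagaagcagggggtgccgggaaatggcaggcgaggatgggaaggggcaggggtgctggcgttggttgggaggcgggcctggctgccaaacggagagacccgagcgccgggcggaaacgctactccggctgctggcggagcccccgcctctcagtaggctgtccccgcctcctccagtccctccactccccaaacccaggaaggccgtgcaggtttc
Psmb10, chr8:105938393-105938642, minus strand: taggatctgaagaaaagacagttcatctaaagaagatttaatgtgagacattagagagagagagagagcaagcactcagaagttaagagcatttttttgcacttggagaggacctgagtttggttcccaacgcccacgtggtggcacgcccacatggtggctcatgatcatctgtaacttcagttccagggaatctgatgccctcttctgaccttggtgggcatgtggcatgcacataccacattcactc
Psmb8, chr17:34197945-34198194, plus strand: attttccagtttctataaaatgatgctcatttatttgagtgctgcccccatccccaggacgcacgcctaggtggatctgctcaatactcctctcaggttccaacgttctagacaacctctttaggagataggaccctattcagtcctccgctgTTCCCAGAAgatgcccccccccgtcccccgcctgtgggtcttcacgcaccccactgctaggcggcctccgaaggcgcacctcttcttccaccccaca
Psmb9, chr17:34187331-34187580, minus strand: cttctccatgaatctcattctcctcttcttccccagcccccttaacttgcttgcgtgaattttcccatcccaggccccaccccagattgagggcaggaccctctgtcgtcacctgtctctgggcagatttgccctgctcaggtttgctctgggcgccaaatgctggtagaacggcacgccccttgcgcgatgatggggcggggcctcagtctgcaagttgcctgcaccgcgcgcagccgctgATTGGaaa

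The window of Psmb8 holds a match to the gamma-activated site whose first base lies 97 bases before the start, and that of Psmb9 holds a CCAAT box, read from the other strand, 8 bases before the start. The windows of Psme1 and Psmb10 hold none of the letters searched. Over the 41 genes, 3 held the interferon-stimulated response element (7.32%, Psmb3, Psmd4 and Psmd9), beside 2.98% of all 32851 promoters. The gamma-activated site was found in Psmb8 and Psmg1 (4.88%), beside 7.02% of all promoters. The antioxidant core was found in 5 (12.2%, Psmb5, Psmb6, Psmc6, Psmd9 and Psmd12), beside 10.2% of all promoters, and CCAAT in 16 (39.0%), beside 33.8%. Of the 10 genes that rose and had an entry, 1 held the interferon-stimulated response element, 0 the gamma-activated site, 1 the antioxidant core and 3 the CCAAT box. These are letter matches in a fixed window and were not tested as sites. The shares of the 41 genes count genes, whereas the shares beside them count promoters. These units differ, so the shares cannot show whether a motif is more or less frequent in proteasome genes.

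Psme1 encodes the alpha subunit of the PA28 activator, a ring that docks on the core particle and opens its gate without ATP. Its log2 values were 9.13, 9.08, 9.10, 9.01 and 9.001 in R6/2 striatum, against 8.31, 8.44, 8.66 and 8.35 in wild-type striatum. The R6/2 values spanned a narrow range, and the lowest of them lay above the highest wild-type value. The means were 9.07 ± 0.06 in R6/2 and 8.44 ± 0.16 in wild-type (SD, n = 5 and 4), a difference of 0.62 ± 0.08 (SE, 95% interval 0.45 to 0.80) or 1.54-fold, with a limma adjusted p of 0.000638. Psme1 also rose with each mouse left out in turn (lowest difference 0.58, highest adjusted p = 0.00331). The difference was 0.64 with the cortical covariate (adjusted p = 0.0394) and 0.59 without the choroid-rich arrays (adjusted p = 0.0327). With age as a covariate it was 0.69, the difference of R62_86 alone from the wild-type mean, and did not pass.

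The other activators were measured by several probe sets that differed. Psme3, a nuclear activator of the same family, had 7.98 to 8.33 in R6/2 and 7.998 to 8.42 in wild-type, and the difference was 0.04 (95% interval -0.18 to 0.27, adjusted p = 0.818). A dimmer probe set of Psme3 averaged 7.71 ± 0.13 in R6/2 and 7.24 ± 0.11 in wild-type (SD, n = 5 and 4) and rose by 0.48 (adjusted p = 0.00704 by limma over all probe sets). Psme4, a large activator of a different family, had 8.48 to 9.01 in R6/2 and 8.44 to 8.61 in wild-type, with a difference of 0.20 (95% interval -0.01 to 0.41, adjusted p = 0.19). One of its 6 probe sets, near the low end of the scale, averaged 4.31 ± 0.10 in R6/2 and 3.86 ± 0.20 in wild-type (SD, n = 5 and 4) and rose (0.45, adjusted p = 0.0171). Psmf1, a proteasome inhibitor in the test tube, had 7.67 to 7.96 in R6/2 and 7.67 to 7.81 in wild-type, with a difference of 0.05 (95% interval -0.10 to 0.21, adjusted p = 0.655). A dimmer probe set averaged 6.95 ± 0.18 in R6/2 and 6.45 ± 0.05 in wild-type (SD, n = 5 and 4) and rose by 0.50 (adjusted p = 0.00759). Another averaged 6.50 ± 0.11 in R6/2 and 6.13 ± 0.15 in wild-type and rose by 0.37 (adjusted p = 0.0219). For these 3 genes the call thus depended on the probe set, and which transcripts each probe set reads was not analysed here.

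Psmb10 encodes the inducible counterpart of the catalytic subunit Psmb7. Its log2 values were 8.35, 8.32, 8.93, 8.26 and 8.53 in R6/2 striatum, against 7.81, 7.79, 7.88 and 7.48 in wild-type striatum. The groups did not overlap, and R62_105 was the highest. The means were 8.48 ± 0.27 in R6/2 and 7.74 ± 0.18 in wild-type (SD, n = 5 and 4), a difference of 0.74 ± 0.14 (SE, 95% interval 0.44 to 1.04) or 1.67-fold, the largest of the 49 genes (limma adjusted p = 0.00489). It rose with each mouse left out in turn, between 0.63 and 0.79. The difference was 0.38 with the cortical covariate (adjusted p = 0.290) and 0.69 without the choroid-rich arrays (adjusted p = 0.0671), neither of which passed. With the age covariate it was 0.61, the difference of R62_86 alone from the wild-type mean, and did not pass.

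The other inducible catalytic subunits, Psmb8 and Psmb9, stand next to Tap1 in the genome and act with it in preparing peptides for class I antigen presentation. Psmb8 had 5.63, 5.55, 5.55, 5.65 and 5.37 in R6/2 striatum, against 5.55, 5.37, 5.54 and 5.55 in wild-type striatum. The groups overlapped, and the difference was 0.05 (95% interval -0.12 to 0.21, adjusted p = 0.708). Psmb9 had 5.24, 5.09, 4.88, 5.26 and 4.98 in R6/2 striatum, against 5.09, 4.98, 5.30 and 5.002 in wild-type striatum, and the difference was -0.00 (95% interval -0.22 to 0.22, adjusted p = 0.99). Both were dim on the array. The upper ends of both intervals lie below the differences of Psmb10 and Psme1, which were read by brighter probe sets. Whether dim signal made the differences of Psmb8 and Psmb9 smaller was not tested. Psmb11, a subunit of thymus epithelium that was near the bottom of the scale in every mouse, had 3.53, 3.45, 3.77, 3.55 and 3.40 in R6/2 striatum, against 3.82, 3.85, 4.03 and 3.66 in wild-type striatum. Every R6/2 value was below the wild-type mean, the ranges overlapped, and the difference of -0.30 ± 0.09 (SE) narrowly missed the threshold (adjusted p = 0.0501).

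Each inducible subunit takes the place of a standard one, so the within-array difference of the 2 was compared between genotypes for the 3 pairs, with exact permutation over every split of the 9 mice, two-sided, adjusted over the 3 pairs. Psmb10 minus Psmb7 was -2.85, -2.59, -2.44, -2.88 and -2.83 in R6/2 striatum, against -3.11, -3.30, -3.12 and -3.52 in wild-type striatum. All R6/2 values were above all wild-type values. The means differed by 0.55 (exact p = 0.00794, the smallest the splits can give, adjusted p = 0.0238). Psmb8 minus Psmb5 averaged -4.96 ± 0.11 in R6/2 and -4.84 ± 0.14 in wild-type (SD, n = 5 and 4), a difference of -0.12 (exact p = 0.190, adjusted p = 0.286). Psmb9 minus Psmb6 averaged -5.27 ± 0.17 in R6/2 and -5.31 ± 0.08 in wild-type (SD, n = 5 and 4), a difference of 0.05 (exact p = 0.635, adjusted p = 0.635). The Psmb10 pair was thus the 1 of 3 that passed, which does not show that the other pairs were alike in both genotypes.

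**Figure D2:**
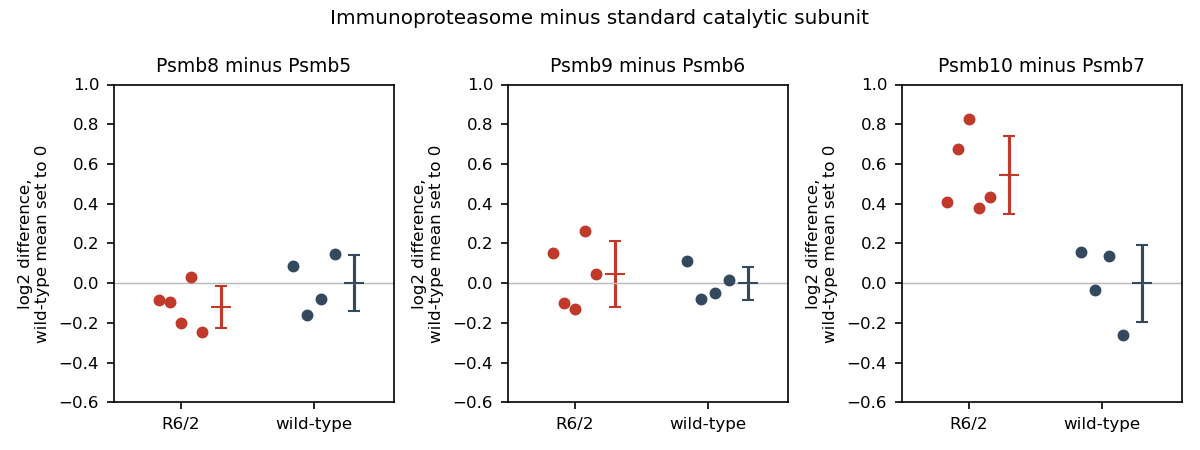
Difference of each inducible minus its standard catalytic subunit within an array (log2, wild-type mean set to 0), 1 point per mouse with R6/2 left of wild-type, and group mean with SD. The Psmb10 minus Psmb7 points of R6/2 mice lie above all wild-type points (mean difference 0.55), whereas the points of the other 2 pairs overlap.

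**Figure D3:**
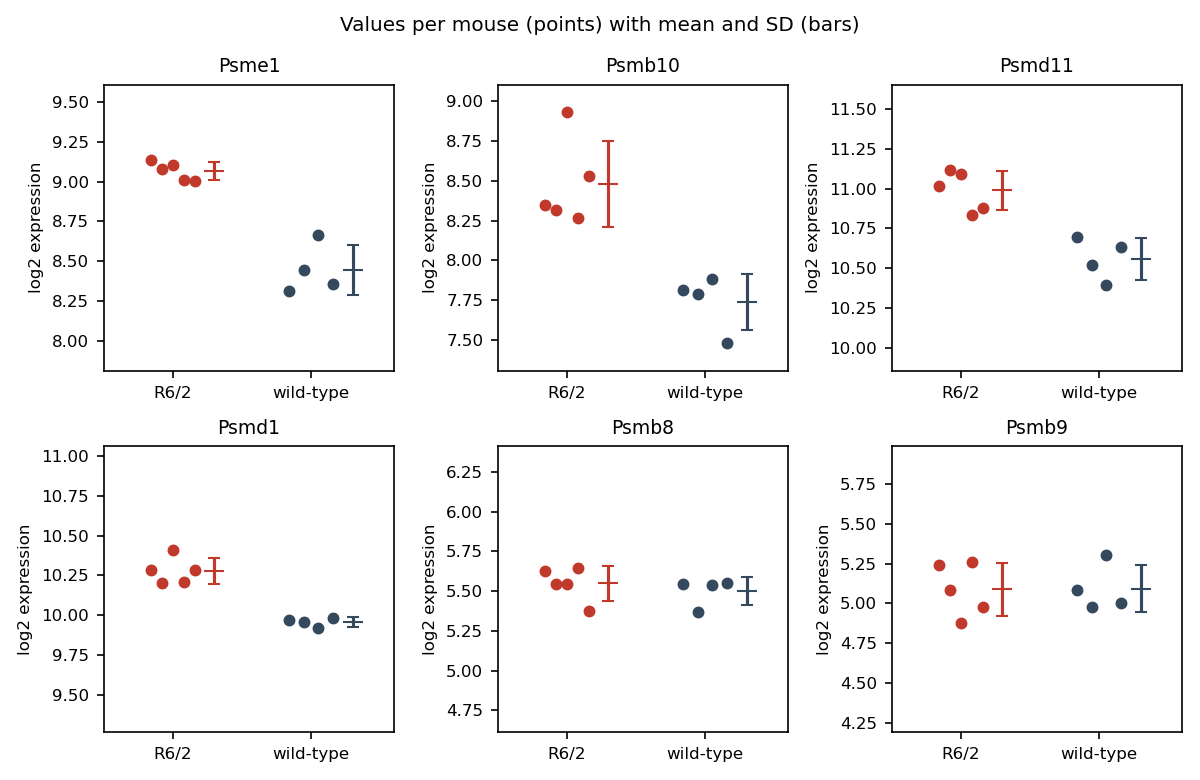
Log2 expression value of 6 proteasome genes in each mouse (points, R6/2 left of wild-type), with group mean and SD. The groups do not overlap for Psme1, Psmb10, Psmd11 and Psmd1, and they overlap for Psmb8 and Psmb9.

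In the alpha ring, 2 of 8 genes rose, beside 9.28% of all genes and 15.7% of the brighter 50%. The median difference was 0.14. Psma3 had 11.42, 11.47, 11.47, 11.26 and 11.29 in R6/2 striatum, against 11.05, 11.11, 11.19 and 11.05 in wild-type striatum. Every R6/2 mouse lay above every wild-type mouse, and the difference was 0.28 ± 0.07 (SE, adjusted p = 0.0183). Psma1 had 10.29, 10.02, 10.12, 10.04 and 10.16 in R6/2 striatum, against 9.79, 9.93, 9.81 and 9.91 in wild-type striatum. Its groups did not overlap either, and the difference was 0.27 ± 0.07 (SE, adjusted p = 0.0251). Psma5 differed by 0.23 (95% interval 0.06 to 0.40, adjusted p = 0.069), Psma2 by 0.17 (95% interval -0.06 to 0.40, adjusted p = 0.287) and Psma4 by 0.11 (95% interval -0.13 to 0.36, adjusted p = 0.525). Psma6 differed by 0.07 (95% interval -0.17 to 0.31, adjusted p = 0.715) and Psma7 by 0.05 (95% interval -0.11 to 0.20, adjusted p = 0.706). Psma8, a testis form of an alpha subunit, was at the low end of the scale in all mice (3.38 to 3.64 in R6/2 and 3.43 to 3.86 in wild-type), with a difference of -0.07 (95% interval -0.27 to 0.13, adjusted p = 0.648).

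None of the 7 standard beta subunits rose or fell by limma, beside 9.28% and 7.57% of all genes. At an unadjusted p under 0.05, 1 was higher, the catalytic subunit Psmb5. It had 10.55, 10.48, 10.59, 10.45 and 10.46 in R6/2 striatum, against 10.30, 10.36, 10.45 and 10.24 in wild-type striatum. The lowest R6/2 value and the highest wild-type value were almost the same, and the difference was 0.17 (95% interval 0.02 to 0.31, adjusted p = 0.104). The catalytic subunit Psmb7 differed by 0.19 (95% interval -0.02 to 0.40, adjusted p = 0.193) and the catalytic subunit Psmb6 by -0.05 (95% interval -0.24 to 0.15, adjusted p = 0.754). The structural subunits Psmb4, Psmb1, Psmb3 and Psmb2 differed by 0.16, 0.14, 0.07 and -0.12, with adjusted p of 0.21, 0.28, 0.775 and 0.566. The median over the 7 was 0.14, and 5 differences were above 0.

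All 6 ATPase differences were above 0, with a median of 0.22. Of the 6 genes 3 rose, beside 9.28% of all genes and 15.7% of the brighter 50%. Psmc6 had 9.73, 9.55, 9.86, 9.65 and 9.82 in R6/2 striatum, against 9.43, 9.40, 9.48 and 9.29 in wild-type striatum. Its groups did not overlap, with a difference of 0.32 ± 0.08 (SE, adjusted p = 0.0166), but its other probe sets differed by -0.00 and 0.02. Psmc3 had 10.54, 10.56, 10.67, 10.47 and 10.62 in R6/2 striatum, against 10.26, 10.30, 10.45 and 10.27 in wild-type striatum, without overlap and with a difference of 0.25 ± 0.07 (SE, adjusted p = 0.0251). Psmc4 had 10.32, 10.53, 10.28, 10.16 and 10.33 in R6/2 striatum, against 9.84, 10.02, 10.03 and 10.19 in wild-type striatum. Here R62_107 lay below WT_66, and the difference was 0.30 ± 0.09 (SE, adjusted p = 0.041). The other probe set of Psmc4 rose by 0.28 (adjusted p = 0.0154 over all probe sets). Psmc2 had 10.60 to 10.84 in R6/2 and 10.45 to 10.59 in wild-type, which did not overlap, and differed by 0.19 (95% interval 0.05 to 0.34, adjusted p = 0.0679). Psmc5 differed by 0.11 (95% interval -0.03 to 0.26, adjusted p = 0.28) and Psmc1 by 0.10 (95% interval -0.06 to 0.27, adjusted p = 0.381).

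Among the non-ATPase subunits, 4 of 11 rose, beside 9.28% of all genes and 15.7% of the brighter 50%. The median difference was 0.21. Psmd11, a lid subunit that helps hold the regulatory particle on the core, had 11.02, 11.12, 11.09, 10.84 and 10.88 in R6/2 striatum, against 10.69, 10.52, 10.39 and 10.63 in wild-type striatum. The groups did not overlap. The means were 10.99 ± 0.13 in R6/2 and 10.56 ± 0.13 in wild-type (SD, n = 5 and 4) and the difference was 0.43 ± 0.09 (SE, adjusted p = 0.00727), or 1.35-fold. Of its 8 probe sets, 2 passed over all probe sets, with 0.43 (adjusted p = 0.0126) and 0.46 (adjusted p = 0.0138). Another averaged 9.32 ± 0.18 in R6/2 and 9.24 ± 0.09 in wild-type (SD, n = 5 and 4), with a difference of 0.07 (adjusted p = 0.684). A further one differed by 0.28 (adjusted p = 0.0785), and the 4 dimmest had differences between -0.11 and -0.03. With the mean over its probe sets, Psmd11 differed by 0.12 and did not pass (adjusted p = 0.124).

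Psmd1 and Psmd2 are the large scaffolds of the base, on which substrate receptors dock. Psmd1 had 10.28, 10.20, 10.41, 10.21 and 10.29 in R6/2 striatum, against 9.97, 9.96, 9.92 and 9.98 in wild-type striatum. The wild-type values lay within a narrow range below all R6/2 values, and the difference was 0.32 ± 0.06 (SE, adjusted p = 0.00585). Psmd2 had 10.67, 10.67, 10.77, 10.68 and 10.72 in R6/2 striatum, against 10.58, 10.46, 10.45 and 10.49 in wild-type striatum. The groups were again apart, with a smaller difference of 0.21 ± 0.06 (SE, adjusted p = 0.0288). Psmd4, a ubiquitin receptor, had 10.30, 10.38, 10.40, 10.21 and 10.22 in R6/2 striatum, against 10.02, 10.09, 10.11 and 9.89 in wild-type striatum, without overlap and with a difference of 0.28 ± 0.07 (SE, adjusted p = 0.0227).

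The other non-ATPase subunits did not pass the test. The lid subunit Psmd3 differed by 0.26 (95% interval 0.07 to 0.44, adjusted p = 0.0627) with groups that did not overlap, and the lid subunit Psmd6 by 0.21 (95% interval 0.04 to 0.39, adjusted p = 0.0852). Psmd14, the enzyme that removes ubiquitin chains at the entrance, had 10.96 to 11.10 in R6/2 and 10.72 to 11.04 in wild-type and differed by 0.16 (95% interval -0.01 to 0.32, adjusted p = 0.174). Psmd12, Psmd7, Psmd13 and Psmd8, all lid subunits, differed by 0.14, 0.12, 0.07 and -0.07, with adjusted p of 0.424, 0.539, 0.675 and 0.765. R62_95 was the lowest R6/2 mouse for Psmd7, at 8.78, and for Psmd8, at 9.29. Over the 31 Psm subunits of the standard particle, without Psma8, 9 rose, beside 9.28% of all genes. All of them lay in the brighter 50% of the array, where 15.7% of genes rose. Of their differences 28 were above 0, beside 8395 of 18193 over all genes and 5280 of 9097 in the brighter 50%. Their median was 0.17. Sem1, a lid subunit outside the naming scheme, is given below and is not among them.

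**Figure D4:**
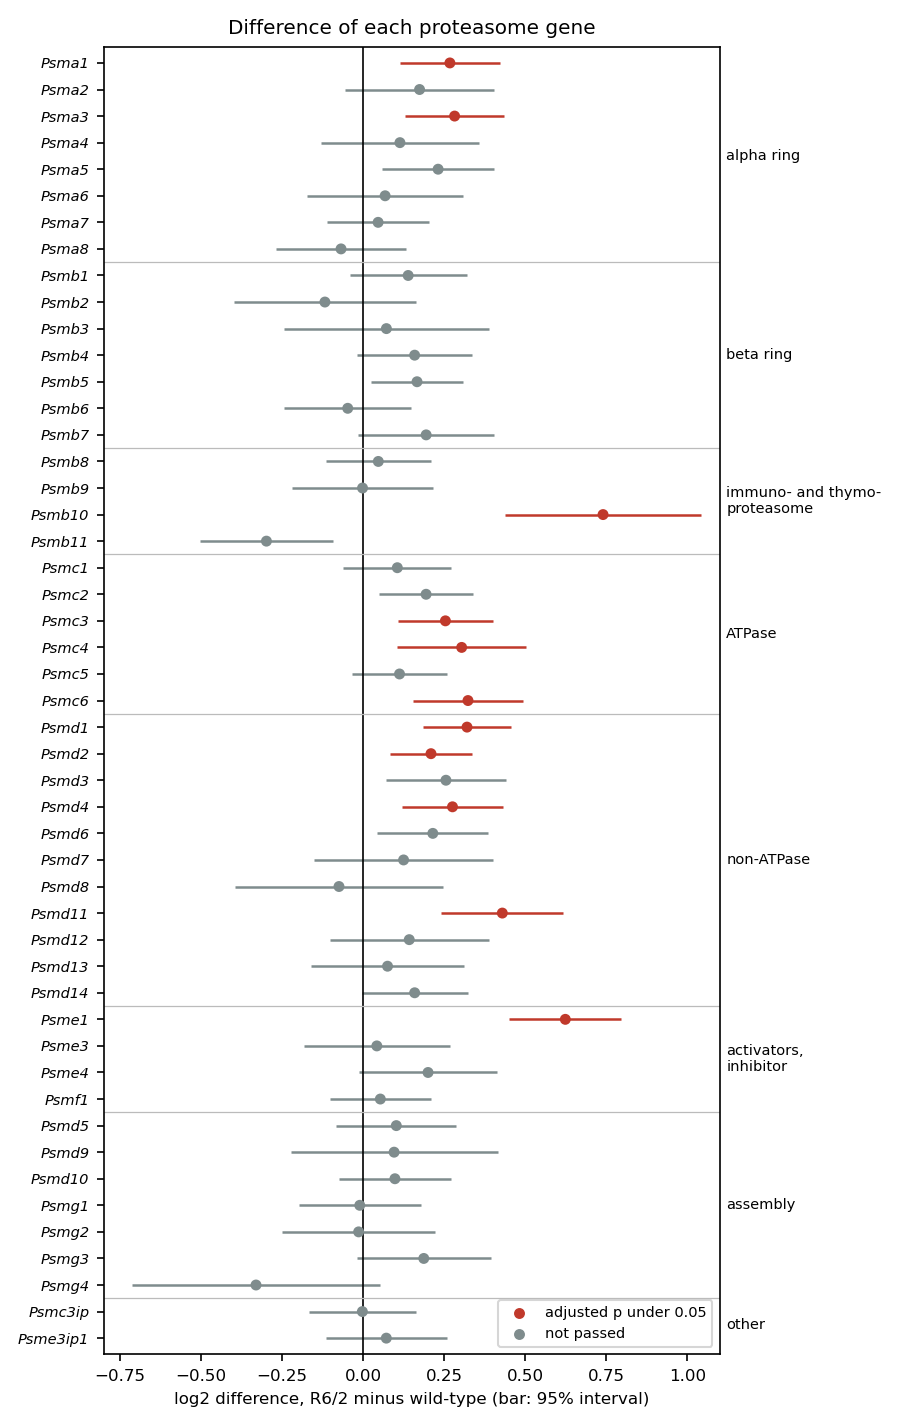
Log2 difference, R6/2 minus wild-type, of each proteasome gene with its 95% interval, by role; coloured points passed the adjusted test and grey ones did not. The 11 genes that rose lie between 0.21 (Psmd2) and 0.74 (Psmb10), and the beta ring and assembly genes hold none of them.

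None of the 7 assembly genes rose or fell by limma, beside 9.28% and 7.57% of all genes, and none passed an unadjusted p of 0.05. These chaperones build the rings and the base and are not part of the finished particle. Psmg3, of the chaperone pair Psmg3 and Psmg4, had 7.73, 7.78, 7.81, 7.83 and 7.82 in R6/2 striatum, against 7.42, 7.60, 7.92 and 7.50 in wild-type striatum, and the difference was 0.19 (95% interval -0.02 to 0.39, adjusted p = 0.206). Its partner Psmg4 had 7.09 to 7.66 in R6/2 and 7.38 to 8.20 in wild-type, and the difference was -0.33 (95% interval -0.71 to 0.05, adjusted p = 0.223). The other chaperone pair, Psmg1 and Psmg2, differed by -0.01 and -0.01, and the base chaperones Psmd5, Psmd9 and Psmd10 by 0.10, 0.10 and 0.10. Their adjusted p were 0.947, 0.944, 0.446, 0.697 and 0.432. Psmc3ip, a meiotic recombination factor, and Psme3ip1, a protein that binds Psme3, differed by -0.00 (95% interval -0.17 to 0.16, adjusted p = 0.984) and 0.07 (95% interval -0.12 to 0.26, adjusted p = 0.61).

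Read by probe set instead of by gene, 16 of 103 rose and 0 fell past the threshold by limma over all probe sets, beside 5.82% of all probe sets that rose. The 16 came from 14 genes. With the mean of all probe sets of a gene in place of the brightest, 9 proteasome genes rose, beside 7.31% of all genes. Psmc2, Psmd6 and Psmf1 passed there and not in the fit reported. Besides Psmd11, the genes that then did not pass were Psma1 (0.17, adjusted p = 0.1001), Psma3 (0.22, adjusted p = 0.0977), Psmc6 (0.12, adjusted p = 0.419) and Psmd2 (0.11, adjusted p = 0.1999).

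The proteasome genes differed between mice of 1 genotype as well. The median over the 49 genes, relative to the wild-type mean of each, was 0.16, 0.10, 0.22, 0.08 and 0.17 in R62_86, R62_95, R62_105, R62_107 and R62_109. It was -0.05, -0.02, 0.15 and -0.08 in WT_46, WT_47, WT_49 and WT_66. WT_49 was therefore within the range of the R6/2 mice by this median, and it was the highest wild-type mouse for 36 of the 49 genes. It still lay below every R6/2 mouse for the genes that rose; the overlap of Psmc4 was between other mice. R62_95 and R62_107 were the lowest R6/2 mice for 18 and 19 of the 49 genes. R62_86, the R6/2 mouse of the same age as the wild-type mice, lay above all wild-type mice for 11 of the 11 genes that rose, and R62_107 for 10. The genes that rose were picked by a fit that holds these mice. The places of R62_86, R62_107 and WT_49 on them are therefore no separate support. Leaving out WT_49 gave 17 genes that rose, beside 9.34% of all genes. Leaving out WT_66 gave 6, beside 6.56%, leaving out R62_105 gave 6, beside 6.39%, and leaving out R62_109 gave 7, beside 6.32%. Of the 11 genes that rose, Psme1, Psmb10, Psmd1 and Psmd11 passed with each of the 9 mice left out. Psma3 and Psmc6 passed in 8 of these 9 fits, Psmd4 in 7, Psma1 in 5, Psmc3 and Psmd2 in 4 and Psmc4 in 2.

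**Figure D5:**
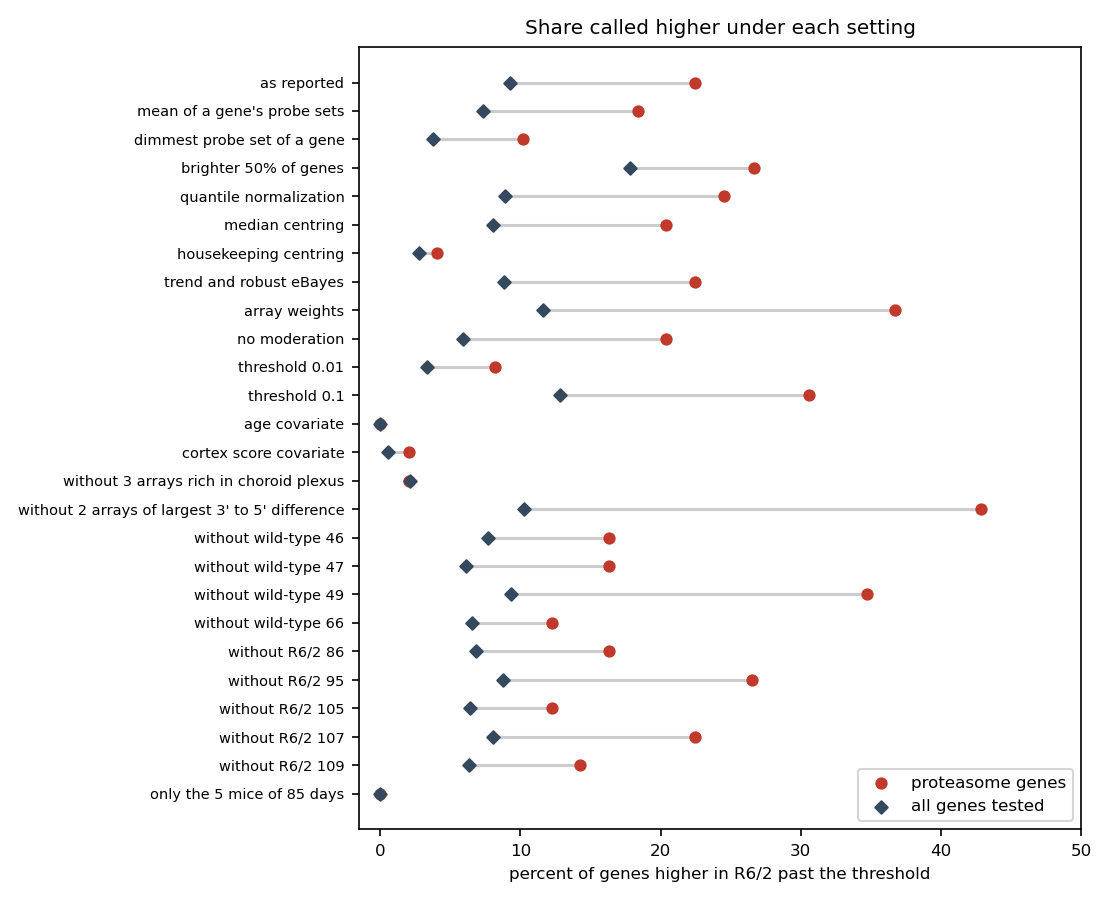
Share of genes that rose (%) under each way of processing, for the 49 proteasome genes and for all genes. The share of proteasome genes is 22.4% in the analysis reported and 0% with the age covariate, where 0.022% of all genes rose.

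Genes that work with the proteasome but lie outside its naming scheme were read in the same fit. Of 30 listed partners, 21 were measured, 7 rose and 0 fell by limma, beside 9.28% and 7.57% of all genes, with a median of 0.15. At an unadjusted p under 0.05, 8 were higher and 0 lower, beside 2973 and 2695 of all 18193 genes. Ecpas, a scaffold that binds proteasomes, had 8.22 to 8.42 in R6/2 and 7.91 to 8.10 in wild-type and rose by 0.32 ± 0.06 (SE, adjusted p = 0.00744). Vcp, the segregase that extracts ubiquitinated proteins for degradation, had 11.44 to 11.87 in R6/2 and 11.11 to 11.27 in wild-type and rose by 0.40 ± 0.09 (SE, adjusted p = 0.0103). Ublcp1, a nuclear proteasome phosphatase, had 9.03 to 9.52 in R6/2 and 8.73 to 9.06 in wild-type and rose by 0.48 ± 0.11 (SE, adjusted p = 0.0126). Sem1, a small lid subunit with a symbol of its own, had 10.15 to 10.36 in R6/2 and 10.27 to 10.63 in wild-type, with a difference of -0.16 (95% interval -0.34 to 0.01, adjusted p = 0.194). With the cortical covariate 1 of the 21 rose, beside 0.533% of all genes, and without the choroid-rich arrays 1 did, beside 2.16%. Without R62_95 and WT_49, 6 did, beside 10.3%. With housekeeping centring 0 did, beside 2.79%, and with the age covariate 0 did, beside 0.022%.

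Of 11 regulators of proteasome genes, 1 rose, a share close to the 9.28% of all genes, and 0 fell by limma, beside 7.57%. The median was 0.10, and at an unadjusted p under 0.05 there were 3 higher and 1 lower, beside 2973 and 2695 of all 18193 genes. Ngly1, which de-glycosylates the transcription factor Nfe2l1 on its way to activity, had 8.12 to 8.27 in R6/2 and 7.89 to 8.0 in wild-type and rose by 0.24 ± 0.06 (SE, adjusted p = 0.0191). None of the 11 rose with the cortical covariate, without the choroid-rich arrays, with the age covariate or with housekeeping centring. Of all genes, 0.533%, 2.16%, 0.022% and 2.79% rose in these fits. Without R62_95 and WT_49, 1 did, beside 10.3% of all genes. Nfe2l1, the factor that raises proteasome gene transcription when proteasomes are inhibited, had 9.53 to 9.79 in R6/2 and 9.72 to 9.95 in wild-type, with a difference of -0.17 (95% interval -0.34 to just under 0, adjusted p = 0.16).

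Of 17 measured genes of the interferon response and antigen processing, 2 rose, a share near the 9.28% of all genes, and 0 fell by limma, beside 7.57%, with a median of 0.22. At an unadjusted p under 0.05, 4 were higher and 2 lower, beside 2973 and 2695 of all 18193 genes. Ifit3, an interferon-induced gene, had 7.18 to 7.49 in R6/2 and 6.39 to 6.92 in wild-type and rose by 0.69 ± 0.11 (SE, adjusted p = 0.00269), and Ifit1, of the same family, had 4.57 to 5.47 in R6/2 and 4.26 to 4.62 in wild-type and rose by 0.63 ± 0.19 (SE, adjusted p = 0.0397). Ifngr1, a chain of the receptor for interferon gamma, had 6.96 to 7.03 in R6/2 and 7.004 to 7.34 in wild-type, with a difference of -0.18 (95% interval -0.34 to -0.02, adjusted p = 0.112). With the cortical or the age covariate 0 of the 17 rose, beside 0.533% and 0.022% of all genes. Without the choroid-rich arrays 1 did, beside 2.16%. With housekeeping centring 1 rose and without R62_95 and WT_49 2 did, beside 2.79% and 10.3% of all genes. Tap1, the peptide transporter gene beside Psmb8 and Psmb9, was looked up after its values were seen. It had 5.38 to 5.67 in R6/2 and 5.38 to 5.76 in wild-type, with a difference of -0.02 (95% interval -0.24 to 0.19, adjusted p = 0.899).

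Immunoproteasome genes are strongly expressed by microglia, so that cell type's markers stand beside Psmb10 and Psme1. Of 13 measured microglia markers, 0 rose and 4 fell by limma, beside 9.28% and 7.57% of all genes. Their median was -0.51, with array means of 7.43 to 7.88 in R6/2 and 7.89 to 8.44 in wild-type. At an unadjusted p under 0.05, 0 were higher and 10 lower, beside 2973 and 2695 of all 18193 genes. P2ry13, a purine receptor of microglia, had a difference of -0.73 ± 0.14 (SE, adjusted p = 0.00479), Trem2, a lipid receptor, of -0.50 ± 0.10 (SE, adjusted p = 0.00867), and C1qa, a complement gene, of -0.65 ± 0.19 (SE, adjusted p = 0.0396). Ctss, a lysosomal protease, had a difference of 0.07 (95% interval -0.22 to 0.35, adjusted p = 0.769). Without the choroid-rich arrays 4 of the 13 fell, with housekeeping centring 7 and without R62_95 and WT_49 3. Beside these, 489, 1633 and 1442 of all 18193 genes fell. With the cortical covariate 0 of the 13 fell, beside 0.901% of all genes, with a median of -0.21. With the age covariate 0 fell, beside 0.143%, with a median of -0.34. Of 9 endothelial and blood markers none rose or fell by limma, beside 9.28% and 7.57% of all genes. At an unadjusted p under 0.05, 1 was higher and 2 lower, beside 2973 and 2695 of all 18193 genes. Of 10 astrocyte markers 5 fell, and of 9 oligodendrocyte markers 3 fell, beside 7.57% of all genes. These counts were 2 and 1 without the choroid-rich arrays, 6 and 3 with housekeeping centring, and 5 and 3 without R62_95 and WT_49. The counts of all genes that fell in these fits are those given for microglia. With the cortical or the age covariate both counts were 0, beside 0.901% and 0.143% of all genes. The part of these cell types in the proteasome results was not tested.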

How the data were processed

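Striatal RNA of 5 R6/2 and 4 wild-type mice was measured on 1 array each. The deposited values are log2 expression values of 45101 probe sets, made by the authors with RMA and affy, per the submitters' processing notes. No source used here names the software versions or the arrays normalized together. In RMA values a change in total RNA per cell cannot be seen. Correlations between arrays were 0.979 to 0.995 and at most 3.93% of values were identical in a pair, so each array counted as 1 replicate. The number of arrays limits the precision.

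Probe sets naming 1 gene (34945, of which 34741 matched the RefSeq gene table of GRCm38.p6) gave 18193 genes, by the probe set with the highest mean. No filter on dim genes was set. The test of genotype, the only term, was two-sided and used lmFit and eBayes of limma 3.58.1 in R 4.3.3. Its p-values were adjusted by Benjamini-Hochberg across the 18193 genes, and adjusted values under 0.05 passed. Errors of differences are limma's moderated SE, and intervals cover 95%. Single probe sets were tested with limma over all 45101. Pairs of subunits were tested with exact permutation. Tables were handled with Python 3.11.15 and pandas 2.3.3, and figures drawn with matplotlib 3.10.9.

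The members and the 11 gene lists were chosen with earlier results of these data known. Every proteasome gene is named. Values of every mouse are given for those that rose, for the inducible subunits and for the member with the smallest p of each role. Of the lists concerning the ubiquitin pathway, interferon and microglia, up to 3 passing genes with the smallest p are named, and the one with the smallest p of the opposite direction. Genes of the remaining lists are given as counts.

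Alternatives concerned the probe set of a gene, dim genes, normalization, variance model, threshold, age, neighbouring tissue, RNA quality and each mouse.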

Additional observations from a re-analysis of the deposited data

Results flagged for a closer look

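In a group of 4 or 5 mice, a value was picked out where its gap to the nearest mouse took up an unusually large part of the group's range. Of 104 groups of values examined over the 49 proteasome genes and the 3 pairs of subunits, 6 met this, and chance gives about 1 in 20.

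R62_95 was the lowest R6/2 mouse, far from the others, for Psma4 (9.78, nearest 10.20), Psmd7 (8.78, nearest 9.33) and Psmd8 (9.29, nearest 9.87). WT_49 was the highest wild-type mouse for Psmb4 (11.11, nearest 10.83) and Psmg1 (8.22, nearest 7.93). These 2 mice also had the largest 3' to 5' differences of the control probe sets, 0.82 and 0.37. WT_47 was the lowest wild-type mouse for Psmb8, at 5.37, with the nearest at 5.54. The part of RNA quality in these values was not tested. None of the 6 genes rose or fell by limma, and 0 of the 6 passed an unadjusted p of 0.05.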

How the results depend on the processing

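In the analysis reported, 11 proteasome genes rose and 0 fell by limma (16 and 1 at an unadjusted p under 0.05), beside 1688 and 1378 of all genes, and their median difference was 0.12. With the dimmest probe set of each gene, 5 rose, with 685 and 809 of all genes higher and lower, and Psmd11 differed by -0.030. Housekeeping centring gave 2 higher and 1 lower, beside 508 and 1633 of all genes, and a median of 0.017. Median centring, array weights, a threshold of 0.1 and eBayes with trend and robust options each gave 1 lower, Psmb11. Beside it, 1598, 1671, 2019 and 1365 of all genes were lower, in that order. Array weights gave 18 higher, with 2116 of all genes higher. Without moderation 1081 of all genes were higher. At a threshold of 0.01, 4 rose, with 607 and 650 of all genes. The age covariate left 0, with 4 and 26 of all genes, and the 5 mice of 85 days, a choice made after seeing the data that leaves 1 R6/2 mouse assumed to vary like the wild-type mice, left 0, with 1 and 4 of all genes. The cortical covariate left 1, with 97 and 164 of all genes, and leaving out the arrays highest in choroid plexus markers left 1, with 393 and 489. Without R62_95 and WT_49, 21 rose. Leaving out each mouse gave 6 to 17 higher and 0 to 1 lower, beside 1120 to 1699 and 1020 to 1386 of all genes. Without a mouse, Psmb10 minus Psmb7 differed by 0.46 to 0.60, and none passed because fewer splits cannot reach an adjusted p of 0.05. The causes of the other moves were not tested. Over 25 alternatives, 75 differences of single members changed sign, 74 of them in members that passed neither before nor after. No paired analysis was possible because the groups share no animal numbers.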
